A study of Mus musculus with 8 samples.

Results

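The genes described here are the nuclear genes of the mitochondrial respiratory chain, measured in mouse macrophages before and during exposure to lipopolysaccharide (LPS). They were chosen by name: every gene whose symbol in the platform annotation starts with Nduf, Sdha to Sdhd, Uqcr, Cox4 to Cox8 or Atp5. The rule found 87 of the 12394 genes that the array names, 39 of them of complex I, 7 of complex II, 8 of complex III, 16 of complex IV and 17 of complex V. By their known roles, 21 are core subunits, 51 accessory subunits, 8 assembly factors, 6 isoforms restricted to other tissues, and 1, Cox7a2l, is a supercomplex factor. The core and accessory subunits together, 72 genes, are called the structural subunits. The subunits encoded in the mitochondrial genome were not analysed here. Ndufa4 was counted with complex I by its name, although the protein is now assigned to complex IV.

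The macrophages were grown from bone marrow of C57BL/6 mice, either wild type (WT) or carrying a Cd14 deletion (Cd14-/-), aged 6 to 8 weeks, over 7 days with 10% serum and the growth factor M-CSF. CD14 is a surface protein that passes LPS, a component of the bacterial outer membrane, to its receptor TLR4. Both genotypes were harvested without stimulus (0 h) or after exposure to smooth LPS (1 µg/ml) that lasted 6 h or 24 h. WT cells were also given LPS together with EGTA, a chelator of extracellular calcium, for 6 h or 24 h; the label of the 24 h sample gives 2 mM, and no array held EGTA without LPS. That makes 8 groups with 1 Affymetrix array each, so no difference between a pair of arrays has a replicate check, and the labels do not say how many mice gave the cells of an array. Because bulk RNA was measured, fewer cells expressing a gene and less of its RNA per cell cannot be told apart.

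The respiratory chain sits in the inner mitochondrial membrane. Complex I takes electrons from NADH and complex II from succinate, complex III passes them to cytochrome c, complex IV hands them to oxygen, and complex V uses the proton gradient that this builds to make ATP. Core subunits as classed here include those with the catalytic centres, the membrane anchors of complex II and the large matrix-side subunits of complex III. They also include the central stalk and c ring genes of complex V, while no complex IV gene is among them. Accessory subunits surround the core, and assembly factors help to build the complexes without staying in them. Macrophages given LPS are known to shift from respiration towards glycolysis, and succinate oxidised by complex II is known to feed reactive oxygen species in these cells.

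Values are intensities of probe sets after quantile normalization, which gives all arrays the same distribution of values. Values under 38.4, the 40th percentile of all values, were raised to that floor. The median of all values, 88.2, served as a mark of brightness: a gene above it on an array is called bright there, and a gene entered a comparison if bright on at least 1 of its arrays. Of the 87 genes, 83 were bright on at least 1 array. A gene with several probe sets was represented by the one with the highest mean, and since intensity depends on the probe, levels of different genes are not set against each other. Cd14 lay between 3849 and 12515 on the 5 WT arrays and at the floor on the 3 Cd14-/- arrays; the sources used here do not say whether its probe set lies in the deleted part. All 7 macrophage markers (Adgre1, Csf1r, Cd68, Itgam, Fcgr1, Lyz2 and Mertk) were bright on every array, with a summed intensity of 49591 to 61512. None of the 3 B cell, 4 dendritic cell, 4 fibroblast and 2 erythroid markers found was bright on any array, whereas Kdr of the endothelial list was bright on 7 arrays with Cdh5 and Pecam1 dim, Kit of the mast cell list on the unstimulated arrays, Cd247 on 1 array and Camp on 1 array. Their part in the results below was not tested. RNA integrity numbers ran from 9.3 to 9.7, and the medians of the deposited intensities from 55.9 to 119.

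Respiratory chain genes are known for compact promoters without a TATA box that carry sites for NRF1, for ETS factors such as GABPA, and for YY1 and SP1. Promoter windows from RefSeq (assembly GRCm38.p6), each running from 250 bases before to 50 bases after a start site, were found for 73 of the 87 genes, in 78 windows, and 14 genes had no entry. Motifs were searched on both strands: GCGCANGCG for NRF1, CCGGAAG for GABPA, AANATGGCG for YY1, GGGCGGG for SP1, TNAAGGTCA for ESRRA and TGACGTCA for CREB. The NRF1 motif stood in 26.9% of the windows of respiratory chain genes and in 6.25% of all 32851 windows of the table. For GABPA the shares were 25.6% and 8.86%, for YY1 12.8% and 2.38%, for SP1 34.6% and 25.6%, for ESRRA 2.56% and 1.28%, and for CREB 3.85% and 1.79%. By complex, the NRF1 motif was found in 7 of 15 genes of complex V, 3 of 6 of complex II, 2 of 5 of complex III, 7 of 36 of complex I and 1 of 11 of complex IV. A match describes the letters of a window and is no measured binding site.

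The 250 bases before the start site are shown for 5 genes whose array values are described below, read 5′ to 3′ on the gene's strand, with the motif matches in capitals. Ndufb1, on chromosome 12 at chr12:101975739-101975988 (minus strand), is shown because it had the widest range of the structural subunits, and none of the 6 motifs is in its window. Ndufaf4 (chr4:24897833-24898082, plus strand) had the widest range among the assembly factors with a second probe set. Ndufa8 (chr2:36049339-36049588, minus strand) varied over the arrays like most other subunits after quantile normalization, Cox6a1 (chr5:115348959-115349208, minus strand) had the narrowest range of the bright genes, and Sdhd (chr9:50603850-50604099, minus strand) is a complex II subunit with matches to 4 of the motifs.
Ndufb1: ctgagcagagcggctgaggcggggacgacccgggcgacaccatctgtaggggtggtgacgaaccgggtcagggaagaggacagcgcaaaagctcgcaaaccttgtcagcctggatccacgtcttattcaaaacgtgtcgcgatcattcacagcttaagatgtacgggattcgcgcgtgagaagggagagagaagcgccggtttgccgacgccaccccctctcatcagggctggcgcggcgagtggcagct
Ndufaf4: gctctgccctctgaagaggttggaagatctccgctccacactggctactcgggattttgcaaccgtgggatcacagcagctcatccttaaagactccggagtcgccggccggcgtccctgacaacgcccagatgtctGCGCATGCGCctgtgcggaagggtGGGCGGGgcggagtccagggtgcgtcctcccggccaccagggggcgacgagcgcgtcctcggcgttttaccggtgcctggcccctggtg
Ndufa8: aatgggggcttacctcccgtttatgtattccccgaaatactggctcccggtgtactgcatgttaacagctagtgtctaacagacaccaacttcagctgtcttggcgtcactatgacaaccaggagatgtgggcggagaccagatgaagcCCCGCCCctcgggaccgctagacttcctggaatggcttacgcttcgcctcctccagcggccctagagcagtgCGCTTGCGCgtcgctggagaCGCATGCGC
Cox6a1: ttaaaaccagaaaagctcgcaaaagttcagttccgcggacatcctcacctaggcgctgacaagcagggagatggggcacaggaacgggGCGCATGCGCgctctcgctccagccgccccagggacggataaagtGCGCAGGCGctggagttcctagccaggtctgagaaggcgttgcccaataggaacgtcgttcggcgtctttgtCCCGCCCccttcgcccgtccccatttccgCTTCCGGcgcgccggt
Sdhd: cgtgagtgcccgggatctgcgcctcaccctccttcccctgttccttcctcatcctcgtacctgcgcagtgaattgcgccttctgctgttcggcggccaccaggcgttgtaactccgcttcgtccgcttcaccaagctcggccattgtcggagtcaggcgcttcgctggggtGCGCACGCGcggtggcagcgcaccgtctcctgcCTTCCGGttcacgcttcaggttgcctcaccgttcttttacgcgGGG
In Ndufaf4 the NRF1 motif, which is close to its own reverse complement, matched on both strands at overlapping positions -113 and -112, and the SP1 motif at -89. Ndufa8 had NRF1 matches at -29 and -9 and an SP1 match at -101. Cox6a1 had NRF1 matches at -162 and -161, which overlap, and at -117, with GABPA at -16 and SP1 at -45. In Sdhd the NRF1 match was at -79 and the GABPA match at -46; its SP1 match starts at -3 and runs past the start site, so that 3 of its letters are shown, and an ESRRA match at 37 lies outside the stretch shown.

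The respiratory chain genes varied little over the 8 arrays. The range of a gene, its highest minus its lowest log2 value, had a median of 0.53 over the 83 bright genes (1.44-fold), against 1.05 (2.08-fold) over all 7292 genes with a bright array. Of the 83 genes, 50 (60.2%) stayed within 1.5-fold and 9 (10.8%) reached 2-fold, against 17.0% and 53.3% of all genes. Genes at least as bright as the brighter structural subunits, 767 in number, had a median range of 0.80. The 36 structural subunits among them had 0.38, and 80.6% of these stayed within 1.5-fold, against 34.55% of the 767. Cytosolic ribosomal proteins varied about as little, with a median range of 0.52 over 42 genes, while mitochondrial ribosomal proteins (74 genes) had 0.72 and mitochondrial import proteins (20 genes) 0.83. With arrays scaled to equal medians in place of quantile normalization, the ranges were 0.52 for the respiratory chain genes and 1.07 for all genes, and with the intensities as deposited 0.93 and 1.43.

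Cox6a1, the ubiquitous form of a complex IV subunit, was the steadiest after quantile normalization. Its intensity was 8744 at 0 h, 8159 at 6 h and 8794 at 24 h in WT cells, 8983 and 7979.7 with EGTA at 6 h and 24 h, and 8538, 8388 and 8644 at 0, 6 and 24 h in Cd14-/- cells. The highest array was 1.13-fold above the lowest. The 9 genes that reached 2-fold were Ndufb1 and the core subunit Ndufs8, 5 assembly factors (Ndufaf1, Ndufaf3, Ndufaf4, Ndufaf7 and Sdhaf1) and the tissue isoforms Cox6a2 and Cox8c. Assembly factors had the widest ranges of the larger classes, with a median of 1.01 over 8 genes. The median was 0.56 for 21 core and 0.40 for 50 accessory subunits. Assembly factors stayed widest at 1.04 with equal medians and 1.60 as deposited. Over all genes the median ranges were 1.05, 1.07 with equal medians and 1.43 as deposited. Most assembly factors had dimmer probe sets than the structural subunits, and the part of brightness in their ranges was not tested. Between complexes the order depended on the scaling: complex IV had the lowest median range, 0.29, after quantile normalization and the highest, 0.63, with equal medians.

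**Figure D1:**
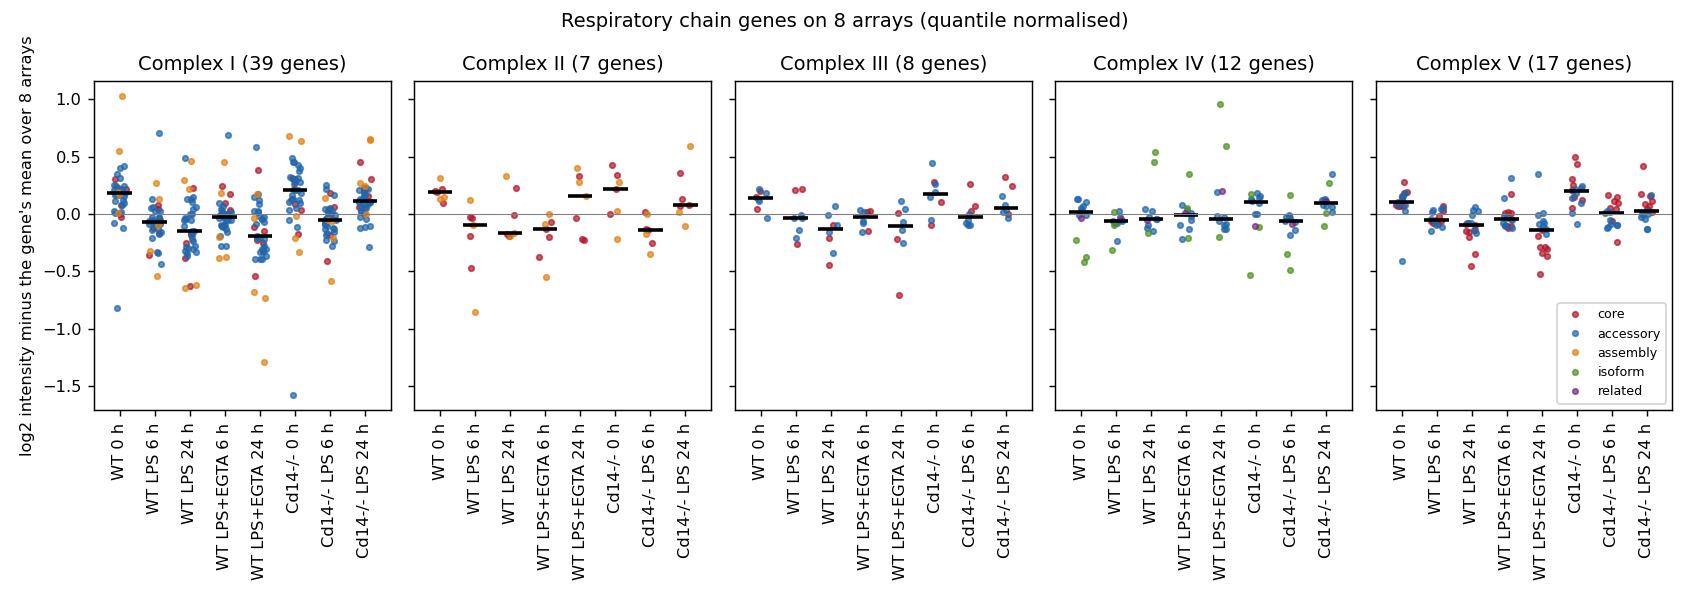
Each point is 1 respiratory chain gene on 1 of the 8 arrays, as its log2 intensity after quantile normalization minus the gene's own mean over the 8 arrays (vertical axis, log2), in a panel for each complex and coloured by class; black bars are medians over the genes. Most points lie within 0.5 of 0. The bars of the unstimulated arrays lie above those of most LPS arrays here, and this order turns over where arrays are scaled to equal medians (a median difference of 0.25 in WT at 24 h against -0.20 here).

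In WT macrophages LPS left most respiratory chain genes within 1.5-fold of the unstimulated array. At 6 h, of 82 genes compared, Ndufb1 was at least 1.5-fold higher and 4 genes were at least 1.5-fold lower (Ndufaf4, Sdhaf1, Ndufb11 and Sdhb), while 17.4% of all compared genes were that much higher and 21% that much lower. At 24 h, of 83 genes, 3 were higher (Ndufb1, Cox6a2 and Cox8c) and 8 lower (Ndufaf4, Ndufaf7, Ndufs8, Ndufab1, Ndufa12, Ndufa8, Ndufb6 and Atp5g1), against 18.9% and 21.8% of all genes. Of these, Ndufb1, Ndufaf4 and Sdhaf1 at 6 h and Ndufb1, Ndufaf4 and Ndufaf7 at 24 h passed 1.5-fold under all 3 scalings of the arrays described next. Both comparisons share the unstimulated WT array.

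A small common shift of the respiratory chain genes, against the unstimulated array or against all genes, had no direction that held across scalings. After quantile normalization 72 of 82 genes were lower by any amount at 6 h in WT (background 58.3%) and 67 of 83 at 24 h (background 54.5%), but with arrays scaled to equal medians 62 of 82 and 59 of 83 were higher instead. With equal medians the medians over all genes were positive too, at 0.043 for 6 h and 0.12 for 24 h. The median over the genes at 24 h was -0.20 on the log2 scale after quantile normalization, beside -0.07 for all genes. With equal medians it was 0.25 beside 0.12, and as deposited -0.51 beside -0.66. The genes are among the brighter ones on the array. Genes at least as bright as the brighter structural subunits moved with the scaling too: their median at 24 h was -0.10 after quantile normalization and 0.48 with equal medians. The median of the respiratory chain genes lay below theirs under both, but that set leaves out the dimmer structural subunits. Values and orders of arrays given for single genes below are those after quantile normalization unless another scaling is named, and they were not all kept under the other scalings.

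**Figure D2:**
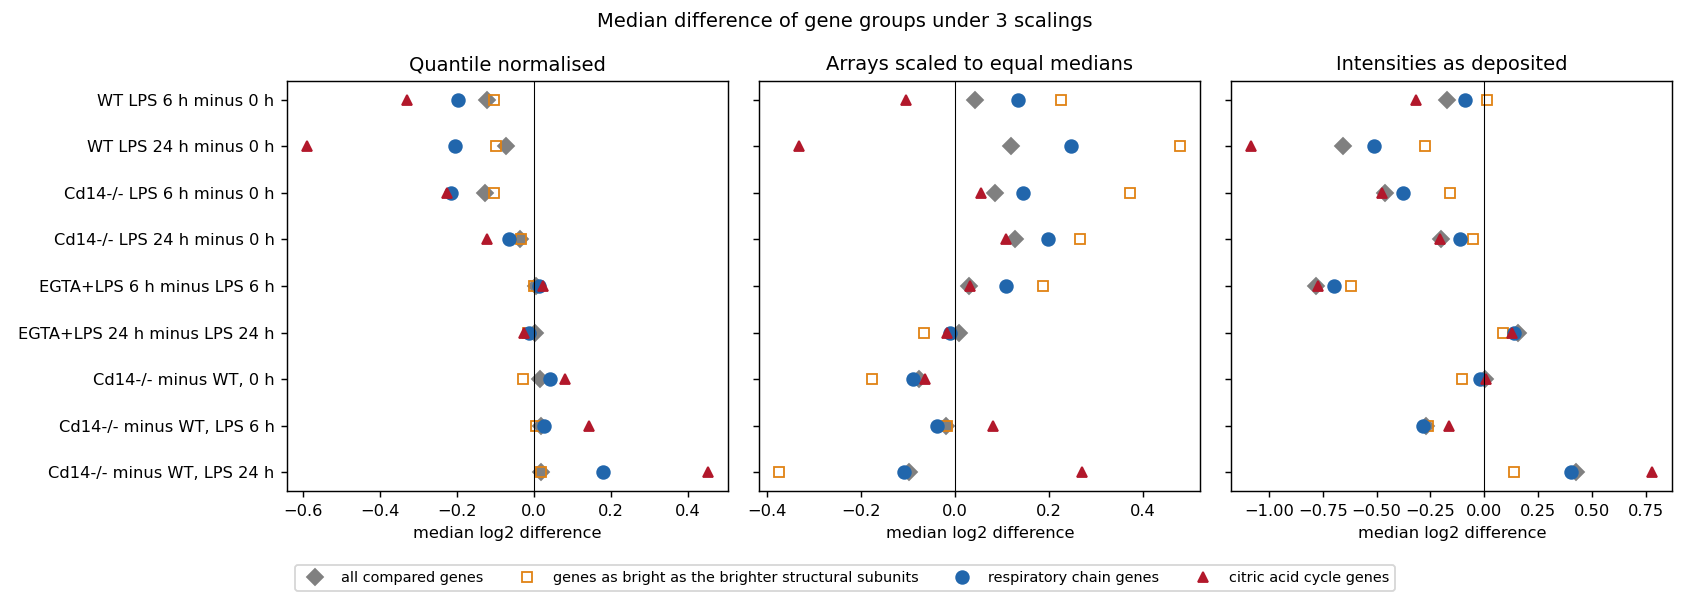
Median log2 difference (horizontal axis) in each of the 9 comparisons (vertical axis) for all compared genes, genes as bright as the brighter structural subunits, respiratory chain genes and citric acid cycle genes, under quantile normalization, equal array medians and the intensities as deposited, with no error bars since each comparison is 1 array against 1. The respiratory chain circle lies to the left of the all-gene diamond in WT at 24 h after quantile normalization (-0.20 against -0.07) and to its right with equal medians (0.25 against 0.12), while the citric acid cycle triangle lies left of the circle there in all 3 panels.

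Complex I, which takes electrons from NADH, held the gene with the widest range, Ndufb1, a small accessory subunit of the membrane arm. Ndufb1 measured 358 in WT cells at 0 h, 1032 at 6 h and 888 at 24 h, 1019 at 6 h and 950 at 24 h with EGTA, and 212, 737 and 519 over the same 3 times in Cd14-/- cells. The 4 arrays of WT cells with LPS, with or without EGTA, and the 2 Cd14-/- arrays with LPS lay above both unstimulated arrays. The difference at 6 h in WT was 1.53 on the log2 scale (2.89-fold) after quantile normalization, 1.69 with equal medians and 1.48 as deposited. At 24 h it was 1.31 (2.48-fold), 1.45 and 0.70. Ndufb1 has 1 probe set, so no other probe set bears on it. How its profile over the 8 arrays compared with that of the other structural subunits turned with the scaling: the Pearson correlation of its log2 values with their median profile was -0.93 after quantile normalization, 0.93 with equal medians and -0.38 as deposited.

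Ndufaf4, an assembly factor of complex I, was lower with LPS in WT. Its intensity was 691 at 0 h, 232 at 6 h and 216 at 24 h in WT cells, 259 and 211 with EGTA at 6 h and 24 h, and 528, 324 and 532 at 0, 6 and 24 h in Cd14-/- cells. The 4 arrays of WT cells with LPS formed the low end and the unstimulated arrays and Cd14-/- at 24 h the high end. The difference in WT was -1.57 on the log2 scale at 6 h (2.97-fold) and -1.67 at 24 h (3.19-fold), and -1.47 and -1.57 with equal medians. A second probe set for Ndufaf4 gave 212.5, 60.9 and 53.4 in WT at 0, 6 and 24 h and 160.3, 59.0 and 135.9 in Cd14-/- cells. In Cd14-/- cells Ndufaf4 was 1.63-fold lower at 6 h and at 24 h 0.01 above its unstimulated log2 value.

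Other assembly factors followed other courses. Ndufaf7 measured 146 in WT cells at 0 h, 120.1 at 6 h and 64.7 at 24 h, 137 at 6 h and 40.8 at 24 h with EGTA, and 160, 96.3 and 99.7 over the same 3 times in Cd14-/- cells. This made Ndufaf7 2.26-fold lower at 24 h in WT, 1.66-fold lower at 6 h and 1.60-fold lower at 24 h in Cd14-/- cells, each past 1.5-fold under all 3 scalings, at intensities not far above the floor. The WT values of Ndufaf3 were 613, 434 and 749.8 at 0, 6 and 24 h, those with EGTA 421 and 530.3 at 6 h and 24 h, and those of Cd14-/- cells 432, 471 and 853. Ndufaf3 was 1.98-fold higher at 24 h than at 0 h in Cd14-/- cells, and in WT the same difference was 0.29 on the log2 scale, 0.47 with equal medians and -0.28 as deposited. Ndufaf1 measured 334 in WT cells at 0 h, 321 at 6 h and 339 at 24 h, 254 at 6 h and 176 at 24 h with EGTA, and 288, 321 and 353 over the same 3 times in Cd14-/- cells. The arrays with EGTA were the lowest for Ndufaf1, the one at 24 h below all others.

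Of the core subunits of complex I, Ndufs8, an iron-sulfur protein, was lowest in WT at 24 h. The WT values of Ndufs8 were 1859.8, 1649 and 1035 at 0, 6 and 24 h, those with EGTA 1899 and 1102 at 6 h and 24 h, and those of Cd14-/- cells 1641, 1814 and 2191. In WT it was 1.80-fold lower at 24 h than at 0 h (-0.84 on the log2 scale, -0.50 with equal medians and -1.25 as deposited). In Cd14-/- cells it was 0.42 higher. Ndufs8 has 5 other probe sets, all of them also lower in WT at 24 h than at 0 h, with log2 differences of -0.09 to -0.66; none of the 5 was higher at 24 h than at 0 h in Cd14-/- cells. Ndufv1, which binds NADH and the flavin, ranged from 751 to 896, a range of 1.19-fold, and the iron-sulfur protein Ndufs1 from 597 to 907. Ndufs3, of the quinone module, differed in course, with its 3 highest values on the 24 h arrays: 2198, 1712 and 2563 in WT at 0, 6 and 24 h, 2339 and 2866 with EGTA, and 1943, 1651 and 2573 in Cd14-/- cells.

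**Figure D3:**
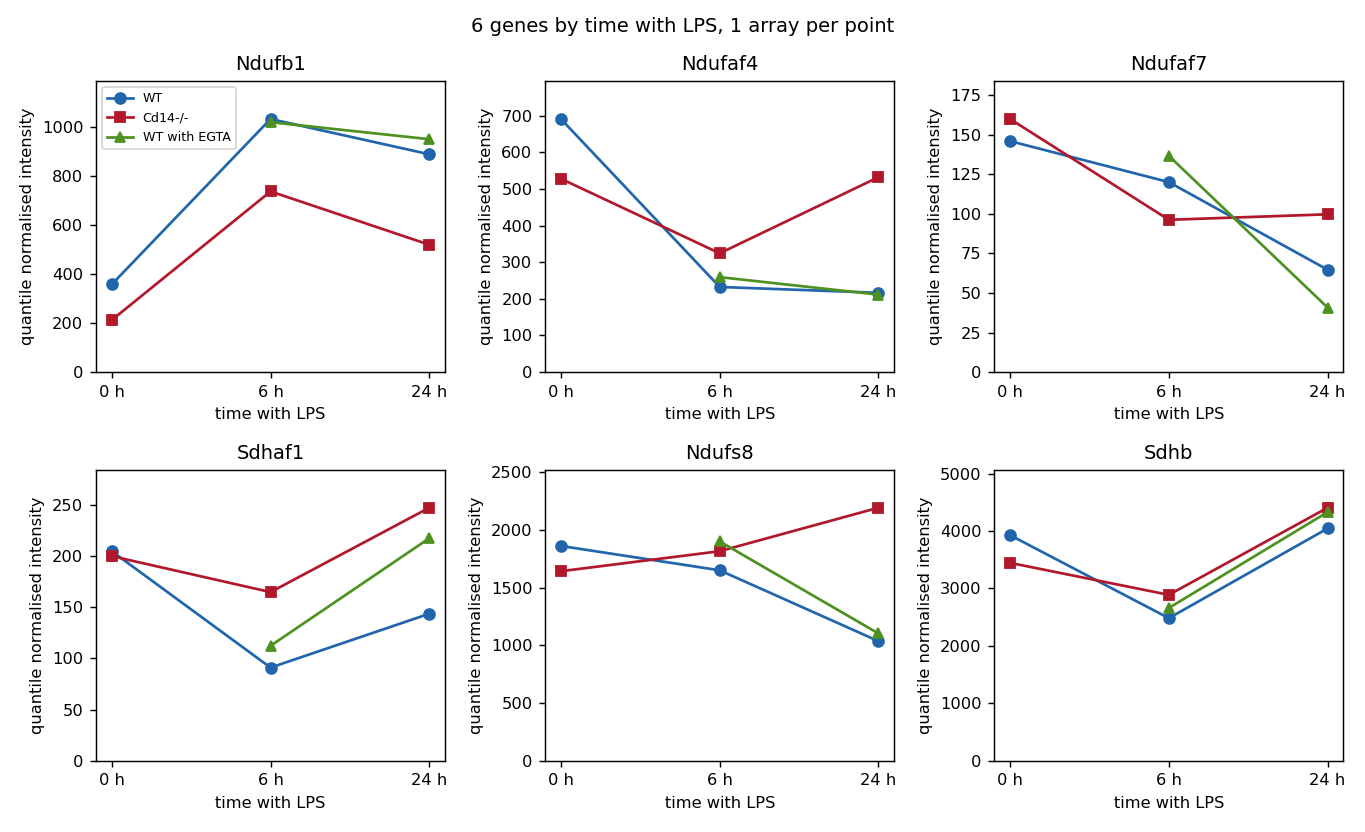
Quantile normalised intensity (vertical axis, linear, from 0) of 6 respiratory chain genes against time with LPS (horizontal axis, 0, 6 and 24 h at equal spacing), with 1 array per point in WT, Cd14-/- and WT cells with EGTA. Ndufb1 is higher on every LPS array than unstimulated, Ndufaf4 goes from 691 to 216 in WT and from 528 to 532 in Cd14-/- cells by 24 h, and Sdhb is lowest at 6 h in both genotypes; the Sdhb course at 6 h in Cd14-/- cells turns to a difference of 0.16 above 0 h with equal medians.

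Ndufa4, which is named for complex I, had its highest value in unstimulated Cd14-/- cells. So did 43 of the 83 bright respiratory chain genes (51.8%) and 26.9% of all genes. Ndufa4 measured 1978 in WT cells at 0 h, 1893 at 6 h and 1602 at 24 h, 1964 at 6 h and 1592 at 24 h with EGTA, and 2697, 2212 and 2044 over the same 3 times in Cd14-/- cells. The 2 unstimulated arrays differed by 0.45 on the log2 scale. Ndufa6, an accessory subunit, was lowest on the arrays with LPS alone at 6 h. Its intensity was 1526 at 0 h, 1061 at 6 h and 1181 at 24 h in WT cells, 1332 and 1517 with EGTA at 6 h and 24 h, and 1612, 1106 and 1532 at 0, 6 and 24 h in Cd14-/- cells. Over complex I as a whole the median difference at 24 h in WT lay below that of all respiratory chain genes by 0.05 after quantile normalization, 0.18 with equal medians and 0.17 as deposited, with 22, 26 and 26 of its 39 genes below.

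Complex II oxidises succinate and feeds its electrons into the chain; its 4 subunits did not share one course. Sdha, the flavoprotein that binds succinate, was highest unstimulated. The WT values of Sdha were 2446, 2053 and 1847 at 0, 6 and 24 h, those with EGTA 2003 and 1815 at 6 h and 24 h, and those of Cd14-/- cells 2448, 2126 and 2210.1. Sdhb, the iron-sulfur subunit, had its 3 lowest values on the 6 h arrays and its 3 highest at 24 h. Its intensity was 3927 at 0 h, 2482 at 6 h and 4044 at 24 h in WT cells, 2659.7 and 4328 with EGTA at 6 h and 24 h, and 3445, 2888 and 4405 at 0, 6 and 24 h in Cd14-/- cells. Its difference at 24 h in WT was 0.04 on the log2 scale, 0.57 with equal medians and -0.18 as deposited. The membrane anchor Sdhc gave 2288, 1949.7 and 1758 in WT at 0, 6 and 24 h, 1815 and 1695 with EGTA, and 2672, 1809.7 and 2094 in Cd14-/- cells. The other anchor, Sdhd, gave 1657, 1361 and 1545 in WT at 0, 6 and 24 h, 1350.2 and 1518 with EGTA, and 1963, 1420.2 and 1706 in Cd14-/- cells. Both anchors were highest on the unstimulated Cd14-/- array, as were 51.8% of the respiratory chain genes and 26.9% of all genes.

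Sdhaf1, an assembly factor that helps to insert the iron-sulfur centres of Sdhb, was the complex II gene with the widest range. Sdhaf1 measured 205 in WT cells at 0 h, 91.0 at 6 h and 144 at 24 h, 112 at 6 h and 217 at 24 h with EGTA, and 199.9, 165 and 247 over the same 3 times in Cd14-/- cells. At 6 h in WT it was 2.25-fold lower than at 0 h, a log2 difference of -1.17 after quantile normalization, -1.18 with equal medians and -1.39 as deposited. At 6 h it was 1.81-fold higher in Cd14-/- than in WT cells, and at 24 h 0.78 higher on the log2 scale. The assembly factors Sdhaf2 and Sdhaf4 ranged over 1.61-fold and 1.25-fold.

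In complex III, which passes electrons to cytochrome c, Uqcrc2, one of the large matrix-side subunits, had the widest range. The WT values of Uqcrc2 were 1990.2, 2088 and 1685 at 0, 6 and 24 h, those with EGTA 1839 and 1102 at 6 h and 24 h, and those of Cd14-/- cells 1932, 1893 and 2132. The array with EGTA at 24 h was the lowest. Uqcrfs1, the Rieske iron-sulfur protein, had its lowest value in WT at 24 h. Uqcrfs1 measured 1685 in WT cells at 0 h, 1897 at 6 h and 1204 at 24 h, 1653 at 6 h and 1645 at 24 h with EGTA, and 1535, 1967 and 1642 over the same 3 times in Cd14-/- cells. Uqcrc1 ranged from 1774 to 2659.7. The small subunit Uqcrb lay between 9556 and 12410, and the remaining 4 small subunits, Uqcr10, Uqcr11, Uqcrh and Uqcrq, had ranges of 1.27-fold to 1.73-fold.

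Complex IV, cytochrome c oxidase, stayed closest to its unstimulated values in WT after quantile normalization, with a median difference at 24 h of -0.06 that became 0.40 with equal medians and -0.36 as deposited. Relative to all respiratory chain genes it was higher under each scaling, by 0.14, 0.16 and 0.16, with 12 of 12, 11 of 12 and 11 of 13 genes above their median. After quantile normalization its ubiquitous subunits had narrow ranges: 1.13-fold for Cox6a1, 1.16-fold for Cox6c, 1.18-fold for Cox5b and 1.19-fold for Cox7a2. Those of Cox6b1, Cox4i1, Cox8a and Cox5a were 1.21-fold, 1.22-fold, 1.35-fold and 1.48-fold. Of the 12 bright genes of complex IV, 10 stayed within 1.5-fold, with a median range of 0.29. With equal medians 4 of 12 did, with a median range of 0.63. Cox4i1, which stabilises the enzyme's core, lay between 6046 and 7358. The probe set for Cox7c was dim, between 38.4 and 81.6, and was not compared.

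The isoforms of complex IV subunits known from other tissues lay at the floor or at low intensities. Cox6b2, the testis form of Cox6b1, and Cox8b, the muscle form of Cox8a, were at the floor on all 8 arrays. Cox4i2, the form of Cox4i1 linked to lung and low oxygen, was at the floor on 7 arrays and at 40.2 with EGTA at 24 h. Cox7a1, the muscle form of Cox7a2, lay between 100.4 and 149. Cox6a2, the muscle form of Cox6a1, passed the 88.2 mark on the 24 h arrays alone: 74.9, 78.2 and 141 in WT at 0, 6 and 24 h, 84.1 and 189 with EGTA, and 67.0, 76.4 and 117 in Cd14-/- cells. Its difference at 24 h in WT was 0.91 on the log2 scale (1.88-fold), and 0.18 as deposited. Cox8c, the testis form, gave 76.8, 96.3 and 141 in WT at 0, 6 and 24 h, 106 and 155 with EGTA, and 95.2, 73.2 and 103 in Cd14-/- cells. It was 0.87 higher at 24 h in WT (1.83-fold), and 0.14 higher as deposited. Cox7a2l, classed here as a supercomplex factor by its known role, ranged over 1.23-fold; its function in these cells was not tested.

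Complex V, the ATP synthase, has 3 genes for its c ring, the rotor in the membrane, which encode the same mature protein. Atp5g1 varied most within complex V. Its intensity was 1109 at 0 h, 945 at 6 h and 728 at 24 h in WT cells, 930.5 and 695 with EGTA at 6 h and 24 h, and 1349.8, 1107 and 1337 at 0, 6 and 24 h in Cd14-/- cells. The lowest values were those of WT cells at 24 h with and without EGTA. Atp5g2 was lowest on the same arrays. The WT values of Atp5g2 were 2874, 2439.5 and 1983 at 0, 6 and 24 h, those with EGTA 2545 and 2001 at 6 h and 24 h, and those of Cd14-/- cells 3561, 2601 and 2557. Atp5g3 lay between 5126 and 7029.6, a range of 1.37-fold. In WT at 24 h Atp5g1 was lower by 0.61 on the log2 scale, by 0.37 with equal medians and by 1.12 as deposited.

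The catalytic subunit Atp5b ranged from 5198 to 7667 and the central stalk subunits Atp5c1, Atp5d and Atp5e over 1.46-fold, 1.46-fold and 1.24-fold. Of the peripheral stalk, Atp5h, Atp5j, Atp5o and Atp5pb ranged over 1.22-fold to 1.29-fold. Atp5md (DAPIT) is a small membrane subunit known to hold synthase dimers together. Atp5md measured 1919 in WT cells at 0 h, 2379.5 at 6 h and 2602 at 24 h, 3170.4 at 6 h and 3245 at 24 h with EGTA, and 2397, 2588 and 2330.4 over the same 3 times in Cd14-/- cells. Its lowest value was the unstimulated WT array and its highest were both arrays with EGTA, and as for Ndufb1 its correlation with the median profile of the other structural subunits turned with the scaling, from -0.70 to 0.89 with equal medians and 0.040 as deposited.

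In Cd14-/- cells LPS also left most respiratory chain genes within 1.5-fold of their unstimulated array. At 6 h, of 82 genes compared, Ndufb1 was at least 1.5-fold higher (3.47-fold) and Ndufaf7 and Ndufaf4 were lower, against 16.3% of all genes higher and 21.2% lower. At 24 h, of 83 genes, Ndufb1 (2.45-fold), Ndufaf3 and Cox6a2 (1.74-fold) were higher and Ndufaf7 was lower, against 15.5% and 17.7% of all genes. Ndufaf4 at 6 h did not reach 1.5-fold with equal medians (-0.51 on the log2 scale, against -0.70 after quantile normalization and -1.04 as deposited), nor did Cox6a2 at 24 h as deposited (0.50, against 0.80, and 0.82 with equal medians). After quantile normalization 75 of 82 genes were lower by any amount at 6 h (background 58.6%) and 52 of 83 at 24 h (background 53.1%), whereas with equal medians 63 of 82 and 68 of 83 were higher. The medians over all genes were then positive too, at 0.085 for 6 h and 0.13 for 24 h.

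Between the genotypes, unstimulated cells differed little. Of 82 genes at 0 h none was at least 1.5-fold higher in Cd14-/- cells, where 6.19% of all genes were, and Ndufb1 was lower (1.69-fold), where 6.68% of all genes were. The largest differences upwards were those of Ndufa4 (0.45 on the log2 scale), Cox7a1 (0.40) and Ndufb2 (0.39). By any amount 30 genes were lower (background 47.5%), and 62 with equal medians, where the median over all genes was -0.076. At 6 h Sdhaf1 was higher and no gene was at least 1.5-fold lower, against 7.53% and 8.9% of all genes. By any amount 36 of 82 were lower (background 47.8%), and 52 of 82 under equal medians, where the median over all genes was -0.019.

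At 24 h of LPS the genotypes differed in more genes: 5 of 83 were at least 1.5-fold higher in Cd14-/- cells, against 14.2% of all genes, and Ndufb1 was lower (1.71-fold), against 14.1%. The difference of Ndufb1 was -0.77 on the log2 scale, -0.87 with equal medians and -0.36, under 1.5-fold, as deposited. The 5 were Ndufaf4 (1.30 on the log2 scale, 2.46-fold), Ndufs8 (1.08, 2.12-fold), Atp5g1 (0.88, 1.84-fold), Sdhaf1 (0.78) and Ndufaf7 (0.62). All 5 passed 1.5-fold under all 3 scalings. With equal medians their differences were 1.29 for Ndufaf4, 0.86 for Ndufs8, 0.71 for Atp5g1, 0.79 for Sdhaf1 and 0.61 for Ndufaf7, and as deposited 1.80, 1.37, 1.22, 1.30 and 1.12. For Ndufs8 this holds for the brightest probe set: of its other 5, 1 was 0.61 higher and the rest lay between -0.37 and 0.38, and with the mean of all probe sets of a gene 4 genes were at least 1.5-fold higher. By any amount 14 of 83 were lower in Cd14-/- cells after quantile normalization (background 48.3%). With equal medians 52 of 83 were lower, where the median over all genes was -0.097. The core subunits showed the same dependence, with 21 of 21 higher after quantile normalization (median 0.27) and 12 of 21 with equal medians (0.05).

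Set against its own unstimulated array, the response at 24 h was higher in Cd14-/- than in WT cells for 66 of 83 genes after quantile normalization (79.5%; 53.5% of all genes), while with equal medians the median response of the genes was 0.20 in Cd14-/- and 0.25 in WT cells. As deposited it was -0.11 in Cd14-/- and -0.51 in WT cells, beside -0.20 and -0.66 over all genes. From 6 h to 24 h, 67 of 83 genes were higher at the later time in Cd14-/- cells (55.5% of all genes), 34 of 83 in WT (51.4% of all genes) and 31 of 83 in WT with EGTA (51.7% of all genes), in quantile normalised values. With equal medians the counts were 44 in Cd14-/- cells (50.5% of all genes), 50 in WT (54.8%) and 35 in WT with EGTA (52.7%).

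**Figure D4:**
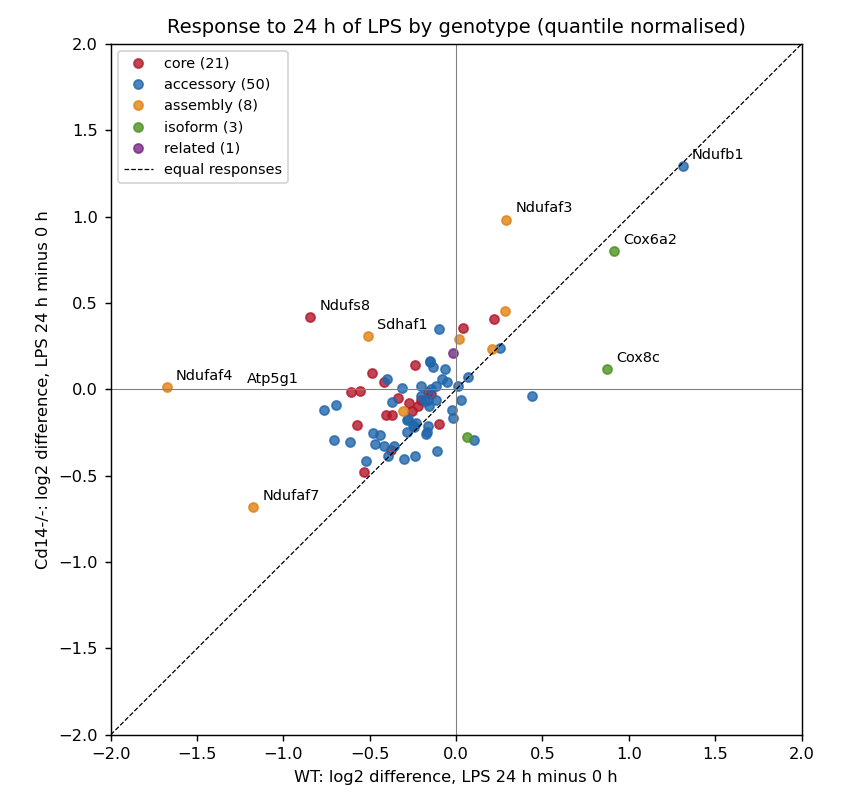
Each point is 1 of 83 respiratory chain genes, with its log2 difference between 24 h of LPS and 0 h in WT cells on the horizontal axis and in Cd14-/- cells on the vertical axis, after quantile normalization, coloured by class; the dashed line marks equal responses, and each difference is 1 array against 1. Ndufb1 lies on the line at the top right (1.31 and 1.29) and Ndufaf4 far above it (-1.67 and 0.01). The surplus of points above the line (66 of 83) was not kept under every scaling. With equal medians the median responses were 0.25 in WT and 0.20 in Cd14-/- cells. As deposited they were -0.51 and -0.11, beside -0.66 and -0.20 over all genes.

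EGTA added to LPS in WT cells went with few differences. At 6 h none of 82 genes was at least 1.5-fold higher or lower than with LPS alone, where 2.74% of all genes were higher and 2.46% lower. The largest difference was that of Ndufb11, an accessory subunit of complex I, at 0.50 on the log2 scale; its other 2 probe sets were higher too, at 2808 against 2559 and 2461 against 2323. At 24 h, of 82 genes, Sdhaf1 was higher (1.51-fold), where 4.52% of all genes were, and Ndufaf1 (1.92-fold) and Uqcrc2 (1.53-fold) were lower, where 4.56% were. The second probe set of Uqcrc2 was also lower than with LPS alone, at 861 against 1325. Ndufaf1 was -0.94 with equal medians and -0.80 as deposited, whereas Uqcrc2 was -0.64 and -0.49. By any amount 36 of 82 were lower at 6 h (background 48.8%) and 44 of 82 at 24 h (background 49.5%). As deposited 83 of 83 were lower at 6 h, on the array with the lowest deposited median. Their median was -0.70, beside -0.78 over all genes. At least 1.5-fold lower were 66 of the 83 and 77.8% of all genes.

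A linear model fitted with limma to all 8 arrays, with additive terms for time, CD14 deficiency and EGTA, gave p-values that rest on 3 residual degrees of freedom, which measure departure from additivity and not spread between cultures. For 6 h of LPS 2 of 83 respiratory chain genes passed a Benjamini-Hochberg adjusted p of 0.05, against 27.5% of 7292 genes. Ndufb1 rose by 1.62 ± 0.15 (log2, SE; adjusted p = 0.0027 in limma) and Ndufa6 fell by 0.51 ± 0.15 (adjusted p = 0.0499 in limma). For 24 h of LPS 3 genes passed, against 26.7%. Ndufb1 rose by 1.34 ± 0.15 (adjusted p = 0.0044 in limma), Cox6a2 rose by 0.93 ± 0.17 (adjusted p = 0.014 in limma) and Atp5g2 fell by 0.54 ± 0.15 (adjusted p = 0.043 in limma). Ndufa6 and Atp5g2 did not pass with equal medians, and Cox6a2 did not pass with the intensities as deposited.

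For CD14 deficiency none of the 83 genes passed in limma, against 0.453% of all genes, and 6 had an unadjusted p under 0.05. Ndufb1 came nearest, at -0.67 ± 0.13 with an adjusted p of 0.12 in limma, and was lower in Cd14-/- cells at all 3 times. Ndufb2 (0.35, adjusted p = 0.22) and Ndufa4 (0.34, adjusted p = 0.23) followed in the limma fit. For EGTA no gene passed, of the 83 or of all genes (0%), while 2 of the 83 and 415 of 7292 had an unadjusted p under 0.05 in limma. The 2 were Ndufaf1, at -0.68 ± 0.20 with an adjusted p of 0.79 in limma, and Atp5md, at 0.42 ± 0.16 with an adjusted p of 0.85 in limma.

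The median correlation between structural subunits of the same complex was no higher than that between different complexes. After quantile normalization the Pearson correlation of log2 values over the 8 arrays had a median of 0.53 within complexes and 0.54 between them, against 0.02 between all genes, and with equal medians the medians were 0.29, 0.38 and 0.02. As deposited they were 0.86, 0.86 and 0.48. The arrays share their normalization, so these are descriptions. Nearest after quantile normalization to the median profile of the other structural subunits were Cox6c and Ndufs7 at 0.97 and Ndufa8 at 0.96. Where a gene had further bright probe sets, 61 in all, these gave the same sign as the chosen one in 45 of 61 for WT at 6 h, 47 at 24 h, 43 for the genotypes at 24 h and 30 of 61 for EGTA at 6 h. For the genotypes the count was 36 at 0 h and 38 at 6 h. In Cd14-/- cells it was 48 at 6 h and 38 at 24 h, and for EGTA at 24 h it was 47.

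Lists of genes that work beside the respiratory chain were described in the same way. Citric acid cycle genes were lower than the respiratory chain genes in WT at 24 h under each scaling. Their median was -0.59 on the log2 scale, with 17 of 17 genes lower and 9 at least 1.5-fold lower after quantile normalization (54.5% and 21.8% of all genes), -0.33 with equal medians (11 of 17 lower) and -1.08 as deposited. This lay below the respiratory chain genes' median by 0.38, 0.58 and 0.57. Idh2, a mitochondrial isocitrate dehydrogenase, gave 542, 501 and 154 in WT at 0, 6 and 24 h, 548 and 141 with EGTA, and 793, 479 and 374 in Cd14-/- cells. Idh3a, a subunit of the NAD-linked isocitrate dehydrogenase, gave 1183, 859.8 and 346 in WT at 0, 6 and 24 h, 791 and 378 with EGTA, and 1255, 949 and 844 in Cd14-/- cells. Fh1, fumarate hydratase, went from 1180.3 to 427 in WT and from 1659.9 to 709 in Cd14-/- cells by 24 h. Between the genotypes at 24 h, 15 of 16 citric acid cycle genes were higher in Cd14-/- cells (median 0.45; 51.5% of all genes higher), and 14 of 16 with equal medians (median 0.27).

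Mitochondrial import genes (Timm and Tomm, 20 compared) also lay below the respiratory chain genes in WT at 24 h under each scaling, with medians of -0.40, -0.11 with equal medians and -0.86 as deposited. Tomm40, the channel of the outer membrane, went from 777 to 353 in WT and from 937 to 941 in Cd14-/- cells. Timm8a1 went from 600.2 to 181 and from 904 to 254, and Timm9 from 144 to 50.7 and from 130 to 77.6. Between the genotypes at 24 h, 18 of 19 import genes were higher in Cd14-/- cells (median 0.45; 51.5% of all genes higher), and 16 of 19 with equal medians (median 0.36). The 74 mitochondrial ribosomal proteins had a median of -0.16 in WT at 24 h, and of -0.02 with equal medians. After quantile normalization 51 were lower (68.9%, against 54.5% of all genes). Mrps28 went from 527 to 143, Mrpl52 from 1147 to 2244 and Mrpl1 from 353 to 390.4.

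Of 25 assembly factors outside the naming rule, 12 were higher and 13 lower in WT at 24 h, where 54.5% of all genes were lower. Their median was -0.02, with 0.12 under equal medians and -0.69 as deposited. Sco2, a copper carrier for complex IV, gave 373, 89.7 and 101 in WT at 0, 6 and 24 h, 78.6 and 111 with EGTA, and 230, 141 and 298 in Cd14-/- cells. Bcs1l, which inserts the Rieske protein into complex III, went from 191 to 88.1 at 6 h and 94.7 at 24 h in WT. Cox18, which inserts a complex IV subunit into the membrane, went the other way, from 414 to 579.8 and 743. Of the 6 subunits and electron carriers outside the rule, 5 were lower in WT at 24 h, against 54.5% of all genes. Among them were the cytochrome c1 gene Cyc1 (1865 to 1211), the ATP synthase inhibitor Atpif1 (3645 to 2434) and the electron transfer flavoprotein Etfb (1145 to 868). Under the other scalings 5 of 6 were lower too.

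Among regulators of mitochondrial biogenesis, of which 14 were compared in WT at 24 h, 10 were lower (median -0.25). That is 71.4%, against 54.5% of all genes. With equal medians 9 of 14 were lower, where the median over all genes was 0.12. Pprc1, a coactivator of the PGC-1 family, gave 478, 116 and 204 in WT at 0, 6 and 24 h, 102 and 169.9 with EGTA, and 369, 232 and 348 in Cd14-/- cells. Tfb2m, a mitochondrial transcription factor, went from 326 to 164 in WT and from 384 to 278 in Cd14-/- cells by 24 h. Ppargc1b, another coactivator, was highest in Cd14-/- cells at 24 h, at 251 against 125 in WT.

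Glycolysis genes ranged wider than the respiratory chain genes, with a median range of 1.07 over 15 genes. In WT at 24 h 4 were higher and 11 lower (73.3%, against 54.5% of all genes). With equal medians 12 were higher, where the median over all genes was 0.12. Pfkfb3, which makes an activator of glycolysis, gave 184, 1384 and 1647 in WT at 0, 6 and 24 h, 1828 and 1974 with EGTA, and 192, 1211 and 603 in Cd14-/- cells. Pdk1, a kinase that holds back pyruvate dehydrogenase, gave 758, 799 and 216 in WT at 0, 6 and 24 h, 652 and 325 with EGTA, and 2024, 789 and 795 in Cd14-/- cells. The glucose transporter Slc2a1 went from 1083 to 2903 and 916 in WT and from 2649 to 3427 and 1913 in Cd14-/- cells. Of 6 mitochondrial genes linked to LPS, 6 were higher in WT at 6 h under each scaling, with a median of 1.22. After quantile normalization 41.6% of all genes were higher there. The 6 genes were listed for a known link to LPS in macrophages, so their increase is no independent result. Acod1, which makes itaconate, an inhibitor of complex II, went from 629 to 10967 at 6 h and 11146 at 24 h in WT and from the floor to 11699 and 10637 in Cd14-/- cells. Sod2, the superoxide dismutase of mitochondria, went from 2164 to 11345 in WT and from 1037 to 13097 in Cd14-/- cells by 24 h, and Bnip3, a mitophagy receptor, from 677 to 1991 at 6 h in WT.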

How the data were processed

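RNA of 8 macrophage samples, 1 per group, was hybridised to 8 arrays. The authors deposited linear intensities made with MAS5, per the submitters' processing notes; its version, any scaling to a common target and detection calls are not given in the sources used here. Of 22690 probe sets, 20393 were named for 1 gene, 691 for several (not used) and 1606 for none.

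The intensities were quantile normalised over the 8 arrays, raised to a floor at the 40th percentile and turned to log2. Differences at or beyond 1.5-fold were counted in 9 comparisons of 1 array with 1 array, with no p-value. limma 3.58.1 (R 4.3.3; lmFit, eBayes) fitted time, CD14 deficiency and EGTA to 7292 genes, with Benjamini-Hochberg adjustment over all of them. On simulated data for 24 h of LPS over these genes it called 100% of genes changed by 1.5 on the log2 scale. It called 36% and 54% of those raised and lowered by 0.5. Whether these shares hold for the arrays was not tested. In the fit to the arrays the standard error for 24 h of LPS differed by gene, for example 0.15 for Ndufb1 and 0.38 for Ndufaf4. Other steps used Python 3.11.15, numpy 2.4.6 and pandas 2.3.3. Quantile normalization removes a shift common to all genes, so equal array medians and the intensities as deposited were set beside it, and these alternatives for ranges, single genes, correlations and the later against the earlier time were added after the data were seen.

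Named genes were the 3 largest differences each way per comparison, isoform pairs, complex II subunits, the widest range per complex, the smallest adjusted p per term and the 3 widest ranges of each other list. Genes given only by their range, genes listed beside a count and second probe sets were chosen after their values were seen. The genes and lists were chosen with earlier results of these data known. The number of arrays limits the precision.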

Additional observations from a re-analysis of the deposited data

Results flagged for a closer look

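In 3 genes, effects of the same contrast ran in opposite directions in different groups, each by more than 1.2-fold; each rests on single arrays, and the differences were not tested. Ndufs8 was lower at 24 h of LPS in WT (-0.84 on the log2 scale) and higher in Cd14-/- cells (0.42), a difference between the responses of -1.26; its 5 other probe sets did not show the increase in Cd14-/- cells. Ndufaf4 was lower in Cd14-/- than in WT cells unstimulated (-0.39) and higher at 24 h of LPS (1.30), a difference of -1.69. Ndufaf7, at intensities not far above the floor, was lower in Cd14-/- cells at 6 h (-0.32) and higher at 24 h (0.62), a difference of -0.94.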

How the results depend on the processing

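No paired analysis was possible because every group has 1 array; for the same reason no replicate could be left out. The counts of genes at least 1.5-fold higher stayed within 1.5 times of the reported count in 46 of 63 recomputed values and those of genes lower in 41 of 63, and the median against all genes kept its place within 0.1 in 43 of 54. A floor at the 20th percentile moved none of them. The cause of the shifts below was not tested.

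With the intensities as deposited, genes at least 1.5-fold higher came to 1 in WT at 24 h (3 reported) and 3 for EGTA at 24 h (1). Between genotypes at 24 h they came to 24 (5). Of all genes, 8.15%, 8.42% and 38.0% were that much higher in these 3 comparisons. Genes lower came to 37 in WT at 24 h (8), where 54.3% of all genes were that much lower. In Cd14-/- cells they came to 15 at 6 h (2) and 2 at 24 h (1), against 41.6% and 24.1% of all genes. For EGTA they came to 66 at 6 h (0) and 1 at 24 h (2), against 77.8% and 2.52%. Between genotypes they came to 4 at 6 h (0) and 0 at 24 h (1), against 20.4% and 6.50%. With equal medians the genes higher were 2 and 6 in WT at 6 h and 24 h and 2 and 7 in Cd14-/- cells. Of all genes, 20.7% and 25.5% were higher in WT and 20.9% and 19.0% in Cd14-/- cells. The genes lower were 2 and 2 in WT and 1 in Cd14-/- cells at 6 h, against 16.9%, 17.2% and 15.1%. At 2-fold the genes higher were 1 at 24 h in each genotype, against 10.6% of all genes in WT and 8.29% in Cd14-/- cells. They were 0 for EGTA at 24 h, and 0 and 2 between genotypes at 6 h and 24 h, against 1.02%, 2.53% and 5.21%. The genes lower were 2 and 2 in WT at 6 h and 24 h, against 9.50% and 10.7%. They were 0 in the other 5 comparisons that had any. Structural subunits alone gave 1 higher at 24 h in each genotype, 0 for EGTA at 24 h, and 0 and 2 between genotypes at 6 h and 24 h, with 2 lower in WT at 6 h, 0 in Cd14-/- cells at both times and 1 for EGTA at 24 h. The mean of all probe sets of a gene gave 4 lower in WT at 24 h, against 19.6% of all genes.

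The median of the respiratory chain genes minus that of all genes reversed in WT at 24 h, from -0.13 to 0.14 as deposited and 0.13 with equal medians, and between genotypes at 24 h, from 0.16 to -0.023 and -0.010. In WT at 6 h it was -0.077, and 0.085 as deposited, 0.091 with equal medians and -0.19 with no filter on dim genes. In Cd14-/- cells at 6 h it was -0.090, and 0.085, 0.061 and -0.21, and at 24 h -0.028, and 0.085 as deposited.

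In the limma fit Ndufb1 passed for 6 h and 24 h of LPS in each version run, with adjusted p from 0.0019 to 0.032 and from 0.0031 to 0.042 (limma). The genes lower at 6 h (1) were 2 as deposited, 0 with equal medians, 0 without the EGTA arrays and 2 with no filter. At 24 h the genes higher (2) were 1 as deposited, 4 with equal medians and 1 with no filter, and those lower (1) were 2 as deposited and 0 with equal medians, without the EGTA arrays, with the mean of probe sets and with no filter. Over all genes the calls for LPS at 6 h and 24 h were 1125 and 966 without the EGTA arrays and 551 and 351 with no filter, against 2002 and 1950, and those for CD14 deficiency were 233 as deposited, against 33. No detection calls are at hand, so how far a dim intensity stands above background is unknown, which limits Ndufaf7, Cox6a2 and Cox8c most.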
